A study of Homo sapiens with 6 samples.

Results

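Dense clusters of open chromatin were examined in HCT116, a human colon cancer cell line, with and without NuMA, which belongs to the nucleoskeleton between divisions and gathers spindle microtubules at the poles in mitosis. The assay was ATAC-seq: a transposase cuts accessible DNA and tags it for sequencing. There were 3 NuMA-depleted libraries (titles tagged AID, genotype and treatment given as NuMA depletion) and 3 wild-type libraries (titles tagged NC, genotype and treatment given as wild type). The labels give neither how nor for how long NuMA was depleted, nor whether replicates are separate cultures; the spread behind each p-value may be technical. The 6 peak lists merged, at an overlap of 1 bp, into 58926 regions, and the 44126 with peaks in 2 or more libraries were kept. Kept regions separated by 5 kb or less were chained, and all regions in chains of 4 or more were taken, which gave 241 regions in 55 chains, or 0.546% of the kept regions. The members were thus chosen by where peaks were called, in how many libraries and how close together. Position and crowding are therefore descriptions of the choice. The rule used neither the values of each peak nor the difference between the groups, but a peak's strength against its surroundings can still depend on crowding.

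An open region marks a stretch where nucleosomes are displaced or mobile, usually a promoter, an enhancer or an insulator. Such regions are spread unevenly: they crowd together where promoters lie close to each other and where several enhancers flank a gene, and they are sparse in gene-poor DNA. Peak callers of the kind used for ATAC-seq report for each peak a fold, which divides the fragments piled up at the summit by a background estimated from the surrounding sequence of the same library. A fold is therefore a contrast with the neighbourhood and not an amount of accessibility. Neighbouring peaks, which the rule required, can enter that background, so fold and background are not independent of the choice. All positions are hg19, 1-based. Gene annotation and genome sequence of that build were not used here, so regions are named by position only, and the colon epithelial identity of the line was not checked against marker promoters.

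The lists differed in length. NuMA-depleted replicates 1, 2 and 3 had 38466, 45892 and 21783 peaks, and wild-type replicates 1, 2 and 3 had 35502, 38685 and 32503. Depth in reads is unknown. Relative depth recovered from the peak values, with a mean of 1 over the libraries, was 1.07 to 1.21 in NuMA-depleted and 0.762 to 0.975 in wild-type libraries. These ranges do not overlap, so depth by this measure cannot be told apart from the group. NuMA-depleted replicate 3 stands apart by its short list, although its relative depth of 1.11 was not low, and results that rest on it are given with and without it.

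Most chains were short. Of the 55 chains, 39 held 4 regions, 13 held 5, 2 held 6 and 1 held 8. Their spans ran from 2.70 to 24.9 kb with a median of 11.9 kb, and 15 chains spanned under 10 kb. The regions filled a median of 24.3% of a chain's span, from 12.9% to 53.5%. Region width had a median of 639 bp, from 208 to 2604 bp, beside 655 bp for the other 43885 kept regions. The 186 gaps inside chains had a median of 2978 bp; 37 were 1 kb or less and 52 were above 4 kb.

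The membership lies on a steep part of the distribution. Just outside the size threshold were 465 chains of 3, with 1395 regions. The widest gap inside a chain was 4998 bp, and the nearest kept region outside a chain was 5038 bp away. With gaps of up to 3 kb the same rule gives 24 regions in 6 chains, and with gaps of up to 7 kb it gives 1077 in 245. Rebuilt without each library in turn, the set numbered 158 to 231 regions, and the lowest count, 158 in 36 chains, came without NuMA-depleted replicate 1. From equal numbers of peaks, the strongest 21783 of each list, only 17 regions in 4 chains remain by that rule. Shorter lists are also sparser, so chains can break up whatever the strength of their regions. The set did hold calls from the weaker part of the longer lists. NuMA-depleted replicate 2 called 85.9% of the regions with its full list and 36.9% with the shortened one. The share of its peaks that lay in the set changed less, from 0.453% to 0.409%.

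Dense chains were unevenly placed along the genome. They occurred on 18 of 23 chromosomes, and chromosomes 7, 15, 18, 21 and X held none. Chromosome 17 held 38 of the regions in 9 chains, or 15.8% of the set beside 5.19% of all kept regions. Chromosome 16 held 25 in 5 chains, 10.4% of the set beside 3.87%. Chromosome 1 held 35 in 8 chains, 14.5% beside 9.66%, and chromosome 8 held 20 in 4 chains, 8.30% beside 4.93%. Chromosomes 2 and 4 went the other way, with 1 chain of 4 regions each, 1.66% of the set beside 7.31% and 4.34% of kept regions. The gene-dense chromosomes 19 and 22 together held 24 regions, 9.96% of the set and 6.37% of kept regions, and the gene-poor chromosomes 4, 13 and 18 held 8, 3.32% beside 8.48%.

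**Figure D1:**
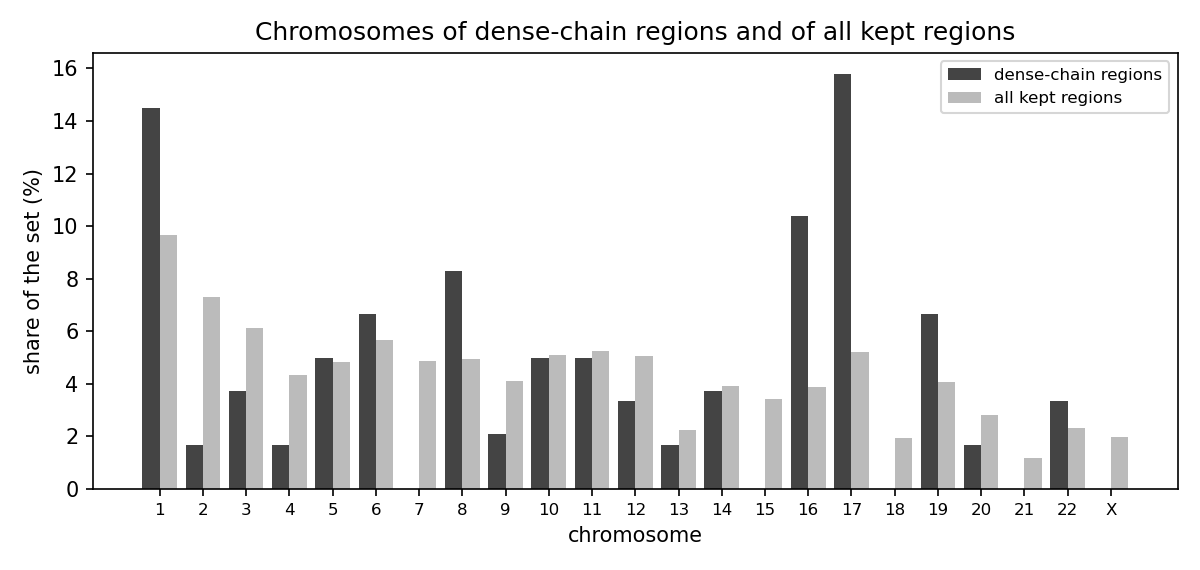
Share (%) of the 241 dense-chain regions (dark bars) and of the 44126 kept regions (light bars) on each chromosome. The dark bars stand highest on chromosomes 17 (15.8%), 1 (14.5%) and 16 (10.4%), and 5 chromosomes have none.

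The surroundings of the chains were also crowded. A dense-chain region had a median of 44 kept regions within 500 kb, beside 34 for regions in chains of 3 and 25 for all kept regions outside dense chains. Around single chains the count ran from 19 to 70. The most crowded was the chain at chr11:65337266-65345266, with 70. The least crowded were those at chr1:192943227-192952929 and chr8:25037062-25046080, with 19 each. That is below the median of 25 for kept regions outside dense chains, so not every dense chain had crowded surroundings. Only 7 chains had another chain within 1 Mb. The closest pair lay on chromosome 8, 637 kb apart, at chr8:144360756-144373823 and chr8:145010671-145028080, and a further chain at chr8:145689475-145704813 followed after 661 kb.

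The chain with the most regions lay at chr16:29816258-29841202, with 8 regions over 24.9 kb. The third region from the start, chr16:29822417-29823091, was called in all 6 libraries. The fold there was 5.62, 4.68 and 4.50 in NuMA-depleted replicates 1, 2 and 3 and 4.67, 5.87 and 5.16 in wild-type replicates 1, 2 and 3, so the groups overlapped. Each fold belongs to its own list, and lists share no known common scale. The fourth region, chr16:29827284-29828424, was also called in every library. Its fold was 5.75, 4.83 and 3.8 in the NuMA-depleted and 3.67, 4.84 and 2.91 in the wild-type libraries. These ranges overlap too, and this was the widest region of the chain at 1141 bp.

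The other 6 regions of that chain were called in part of the libraries. The second, chr16:29818879-29819418, was called in every NuMA-depleted and no wild-type library, with folds of 4.67, 4.16 and 2.91. The fifth and the eighth, chr16:29831115-29831798 and chr16:29840610-29841202, had peaks in NuMA-depleted replicates 1 and 2 alone. The first, chr16:29816258-29817236, was called in the 3 wild-type libraries with folds of 3.73, 4.81 and 3.47, and in NuMA-depleted replicate 2 with 3.87. The sixth and seventh were called in 4 libraries each. NuMA-depleted replicate 2 called all 8 regions, replicates 1 and 3 called 6 and 4, and wild-type replicates 1, 2 and 3 called 3, 5 and 5. The longest chain was thus complete in a single library, the one with the longest list.

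**Figure D2:**
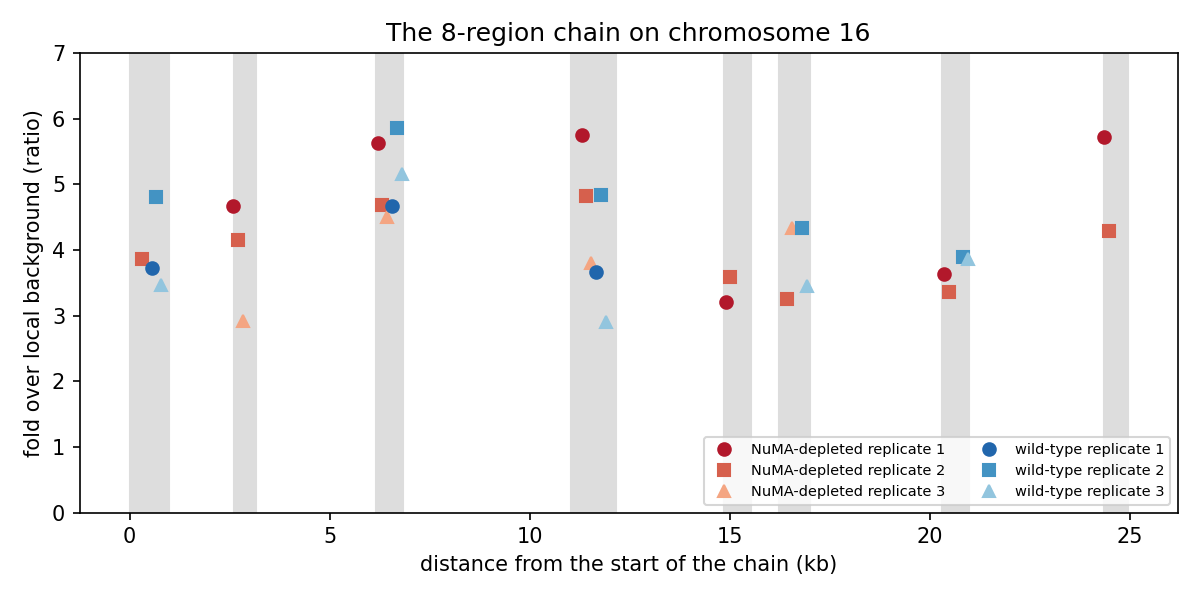
Fold over local background (linear ratio) in each library against distance from the chain's start (kb) for the 8-region chain on chromosome 16; grey bands are the regions and symbols are shifted sideways for clarity, and a missing one is a library without a peak. All 6 symbols stand on the third and on the fourth band alone, and no fold exceeds 5.87.

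The 2 chains of 6 regions differed in how often they were called. In the chain at chr8:145010671-145028080 the folds were low throughout, from 2.4 to 4.46. The region chr8:145016565-145017848 was called in all 6 libraries at 2.80, 2.44 and 2.54 in the NuMA-depleted and 2.4, 2.61 and 2.55 in the wild-type libraries. That is a region listed everywhere with a fold below nearly all other peaks: its mean percentile within the lists was 0.0234. In the chain at chr19:41104085-41121128 the last region, 1950 bp wide, had folds of 4.33, 5.5 and 4.58 in the NuMA-depleted and 3.85, 4.76 and 5.53 in the wild-type libraries. Wild-type replicates 1 and 3 and NuMA-depleted replicates 1 and 2 called all 6 regions of that chain, wild-type replicate 2 called 5 and NuMA-depleted replicate 3 called 4.

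Among the chains of 5 regions, that at chr1:994282-1015910 spanned 21.6 kb and ended in one of the strongest regions of the set. That region, chr1:1014840-1015910, had folds of 10.6, 8.70 and 6.05 in the NuMA-depleted and 8.01, 9.22 and 8.97 in the wild-type libraries, and a mean list percentile of 75.3. The groups overlapped there. The chain at chr9:130323941-130342052 was strong at both ends and weak between. Its first region had folds of 7.81, 7.04 and 7.31 in the NuMA-depleted and 7.22, 7.70 and 5.78 in the wild-type libraries. Its last region had folds of 8.57, 7.84 and 6.60 and of 7.97, 10.1 and 7.56. The 3 regions between them were called in 3, 3 and 5 libraries, with folds from 2.45 to 5.06.

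At chr19:17414129-17428675 only the second of 5 regions was called in all 6 libraries, and the last was called in NuMA-depleted replicates 1 and 2 alone, at 7.34 and 7.68. At chr19:36618544-36632455 the mean folds of the 5 regions ran from 3.32 to 6.47, and at chr3:50297291-50312153 from 3.41 to 5.37. At chr1:32397404-32410635 no region was called in all 6 libraries. NuMA-depleted replicate 2 called all 5 regions there, and the 3 wild-type libraries called 2, 3 and 2. At chr8:145689475-145704813 the mean folds ran from 2.95 to 4.82, with 2 of 5 regions called in every library.

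The longest and second-longest chains of 4 regions had evenly wide gaps, as a long span under a 5 kb limit requires. At chr4:75579385-75596575, 17.2 kb long, gaps ran from 4652 to 4839 bp and no region was called in all 6 libraries. At chr17:2852991-2869549, 16.6 kb long, gaps ran from 4770 to 4859 bp, and the mean folds of its 4 regions were high for the set, from 7.35 to 8.09. Gaps were less even in the next by length. They ran from 2624 to 4732 bp at chr5:139016580-139031657, with mean folds from 3.52 to 4.50. At chr12:53264204-53279121 they ran from 2431 to 4983 bp, with mean folds from 3.86 to 6.39. At chr16:67203787-67218153 they ran from 2549 to 4947 bp, with mean folds from 3.68 to 7.45. The shortest chain, chr6:108879641-108882336, packed 4 regions into 2.70 kb with gaps of at most 579 bp, and none of its regions was called in more than 4 libraries. Its mean folds ran from 3.11 to 4.54. It was picked as the shortest after its values were seen.

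In a single chain all regions were called in all 6 libraries. It lay at chr17:48128231-48142353 and held 4 regions over 14.1 kb. Its second region, chr17:48132475-48134465, had folds of 4.28, 4.34 and 4.88 in the NuMA-depleted and 3.85, 4.16 and 3.63 in the wild-type libraries. Each depleted value lies above each wild-type value. However, the scales of the lists are not known to be common, and relative depth also differed between the groups without overlap. How often regions called everywhere separate in this way was not counted. The region after it, chr17:48139307-48140310, ran the other way in its extremes, with 4.2, 3.92 and 3.33 against 5.18, 7.59 and 4.13, and the ranges overlap. The first and last regions had folds from 3.10 to 5.25 and from 4.29 to 5.88.

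Peaks in dense chains had low folds in every library. The median fold was 4.61, 4.30 and 4.50 in NuMA-depleted replicates 1, 2 and 3, where peaks outside dense chains had 7.02, 6.64 and 6.09. In wild-type replicates 1, 2 and 3 it was 4.31, 4.81 and 4.43, beside 6.58, 7.38 and 6.88. The median peak of a dense chain thus stood between the percentiles 8.06 and 14.1 of its list by fold. Between 10.4% and 15.2% of dense-chain peaks exceeded the median fold of their list. Folds of single peaks ranged from 1.82 to 11.9. As the peaks share a caller and a library, these are descriptions, without a test across regions.

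Among called peaks, the low fold went with a high background and not with a low pileup. Pileup and local background in fragments were recovered for each peak from its fold and p-value, as processing describes. The median pileup at the summit of dense-chain peaks was 31.5, 43.5 and 26 fragments in the NuMA-depleted and 28, 29 and 27 in the wild-type lists. Outside dense chains it was 23, 27 and 20, and 20, 21 and 20. The pileup was thus 1.3 to 1.61 times that of other peaks in each library. The median local background was 5.95, 8.60 and 4.74 fragments in the NuMA-depleted and 5.11, 5.15 and 5.14 in wild-type libraries, beside 1.87 to 3.08 outside, a ratio of 2.0 to 2.80. In all 6 libraries dense-chain peaks had more fragments at the summit than other peaks and a background raised by a larger factor. Only called peaks enter, and over a higher background a peak needs more fragments to be called. The higher pileup may therefore be partly built in too. How far was not tested.

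In all 6 libraries the median fold fell, and the median background rose, from single regions to pairs, chains of 3 and dense chains. These classes are set by crowding, and neighbouring peaks can enter the background, so the trend may be partly built in. How far was not tested. In NuMA-depleted replicate 1 the median fold was 7.55 for regions with no neighbour within 5 kb, 5.88 in pairs, 5.28 in chains of 3 and 4.61 in chains of 4 or more. In wild-type replicate 2 it was 8.0, 6.14, 5.41 and 4.81. The background rose over the same classes, from 2.18 through 3.48 and 4.66 to 5.95 fragments in NuMA-depleted replicate 1 and from 1.74 through 2.91 and 4.10 to 5.15 in wild-type replicate 2. In the shortest list, NuMA-depleted replicate 3, the medians of the fold were 6.35, 5.26, 4.80 and 4.50.

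**Figure D3:**
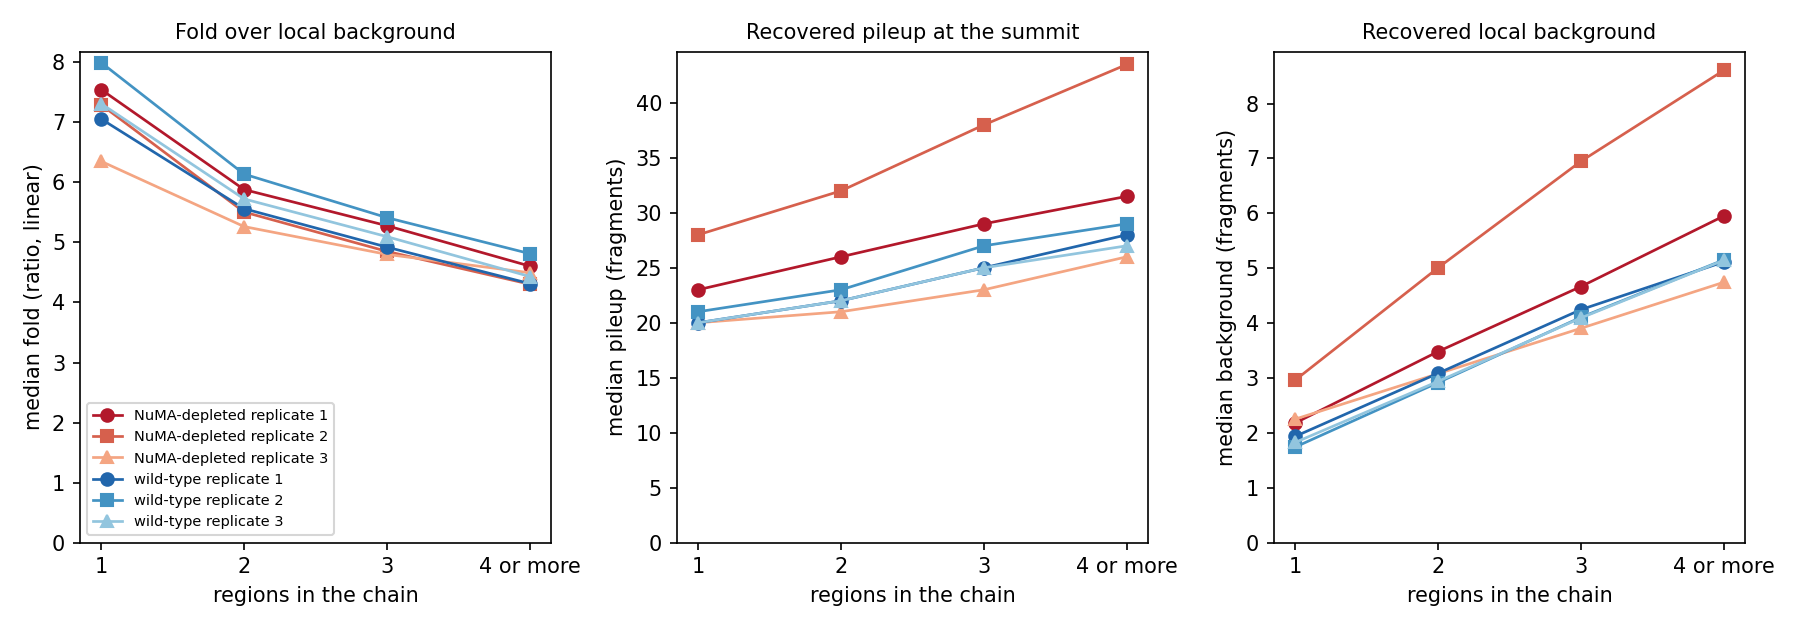
Median fold (linear ratio), recovered pileup and recovered local background (both in fragments) per library against the number of regions in the chain; each line is 1 library. In NuMA-depleted replicate 1 the fold falls from 7.55 to 4.61 while the pileup goes from 23 to 31.5 and the background from 2.18 to 5.95 fragments.

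Regions called everywhere showed the same difference. Of the dense-chain regions 76 were called in all 6 libraries, beside 16933 other regions. Their median fold was 5.39, 5.19 and 4.66 in the NuMA-depleted libraries, where the other regions called everywhere had 8.26, 8.15 and 6.43. In the wild-type libraries it was 4.93, 5.73 and 4.83 beside 7.66, 8.77 and 7.84. Median pileups in the 6 libraries were 27.5 to 56 fragments in dense chains and 22 to 45 in the others. The summits of these 76 regions spread over a median of 214 bp between libraries, against 164 bp in the others, although the regions were narrower, with a median width of 815 against 915 bp.

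Strength also varied inside chains. Averaged over the libraries that called it, a region at the end of a chain had a median list percentile by fold of 17 (110 regions), and an interior region 6.47 (131 regions). By the rule, interior regions have kept neighbours within 5 kb on both sides and end regions on the inner side only. Such neighbours can enter the background, so differences between ends and interiors in fold or −log10 q may be partly built in. How far was not tested. Of the end regions 40 were called in all 6 libraries, and of the interior regions 36. In 36 of the 55 chains the strongest region, by its weakest −log10 q, lay at an end, where 110 of the 241 regions lie. The weakest −log10 q is taken only over the libraries that called a region, so it can favour regions called in few. A region above percentile 50 was present in 18 chains, and in 37 chains no region reached it. Only 2 regions passed percentile 75. One ended the chromosome 1 chain described above. The other, chr13:106803568-106804348, had a fold of 9.66 ± 1.67 (SD over the 5 libraries that called it), and NuMA-depleted replicate 3 did not list it.

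The share of dense-chain regions called did not separate the groups. Of the 241 regions, NuMA-depleted replicates 1, 2 and 3 called 202, 207 and 102, and wild-type replicates 1, 2 and 3 called 175, 189 and 166. As shares these were 83.8%, 85.9% and 42.3%, and 72.6%, 78.4% and 68.9%. The other kept regions were called at 80.3%, 90.9% and 47.8%, and at 73.9%, 79.5% and 69.5%, so the libraries stood in the same order there and the pattern is close to the background. The means were 70.7% ± 24.6 and 73.3% ± 4.81 (SD, n = 3 each). Presence chose the regions and leaned on the longer lists, so these values are a description, with no test. NuMA-depleted replicates 1 and 2 were above all wild-type libraries and replicate 3 below all of them, so the groups overlapped. Without NuMA-depleted replicate 3 the difference turned from -2.63 to 11.6 percentage points, and it was 0.692 with equal numbers of peaks, where each list called 36.9% to 42.3% of the regions.

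**Figure D4:**
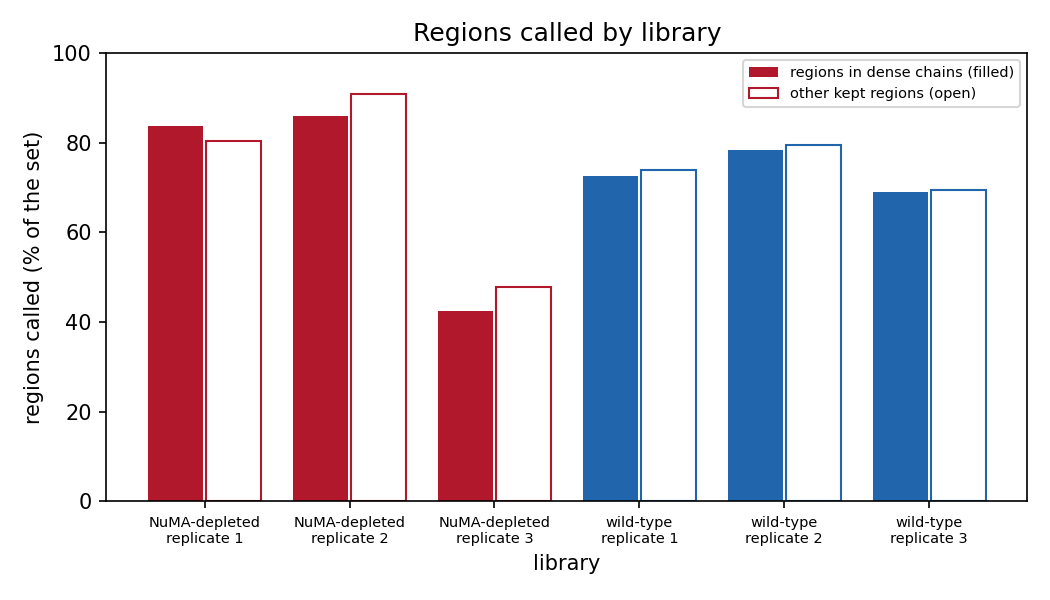
Percent of regions called in each library, for the 241 dense-chain regions (filled bars) and the other 43885 kept regions (open bars), NuMA-depleted in red and wild-type in blue. NuMA-depleted replicate 3 is lowest for both, at 42.3% and 47.8%, and replicate 2 highest, at 85.9% and 90.9%.

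By number of libraries, 76 regions (31.5%) were called in all 6, 50 (20.7%) in 5, 32 (13.3%) in 4, 41 (17%) in 3 and 42 (17.4%) in 2. Of the other kept regions, 38.6% were called in all 6. The most frequent pattern after all 6 was absence from NuMA-depleted replicate 3 alone, in 37 regions (15.4%), a pattern found in 11.6% of other kept regions. NuMA-depleted replicates 1 and 2 alone called a further 13. With replicate 3 set aside, 18 regions (7.47%) were called in both of these and in no wild-type library. That was close to the 6.10% of all kept regions. Of the 241, 209 (86.7%) were called in at least 1 library of each group, beside 89.5% of other kept regions. In 34 chains this was true of all regions.

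Few regions were called throughout one group and nowhere in the other. In all 3 NuMA-depleted and no wild-type library there were 5 of 241 (2.07%), where the share over all kept regions was 0.834%. In all 3 wild-type and no NuMA-depleted library there were also 5 (2.07%), beside 0.791% over all kept regions. Both shares are above the background by a few regions, and alike in both directions. The first count was 18 (7.47%, beside 6.10% of kept regions) without NuMA-depleted replicate 3 and 1 (0.415%, beside 0.999%) with equal numbers of peaks. The second was 10 (4.15%, beside 2.89%) without NuMA-depleted replicate 2, 9 (3.73%, beside 2.21%) without wild-type replicate 3 and 4 (1.66%, beside 0.768%) with equal numbers. With a 10 kb gap, 0.843% of 3202 regions were depleted-only and 1.06% wild-type-only, so most of the distance to the background was gone.

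The 5 depleted-only regions lay in 5 chains. By weakest −log10 q they were led by chr13:106808844-106809131, with folds of 5.86, 6.14 and 8.15 in NuMA-depleted replicates 1, 2 and 3. It is the end region beside the strong one on chromosome 13 that replicate 3 did not list. Next came chr17:70387177-70387821, at 4.16, 4.51 and 4.24, and chr5:142195969-142196425, at 4.15, 4.35 and 4.49. The region at chr10:112116228-112117312 had 4.04, 3.44 and 2.92, and the last was the second region of the 8-region chain on chromosome 16. The folds of the other 4 regions did not exceed 4.67. Absence from a list means that no peak passed the threshold, and says nothing more about how closed the region was.

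The 5 wild-type-only regions lay in 4 chains, of which 3 were on chromosome 17. The chain at chr17:15857413-15870510 held 2 of them. The region chr17:15862321-15862794 had folds of 4.73, 6.47 and 4.17 in wild-type replicates 1, 2 and 3, and chr17:15870017-15870510, at the end of the chain, had 4.08, 3.94 and 5.60. The strongest by weakest −log10 q was chr5:139022736-139023341, at 4.17, 4.67 and 4.65. The others were chr17:80192560-80192914, at 3.09, 4.63 and 3.59, and chr17:75277542-75278119, at 3.63, 3.37 and 2.62. The mean list percentiles of the 5 ran from 0.951 to 19.2, so all ranked low by fold, where the median over all dense-chain regions was 10.5. By −log10 q not every call was weak. At chr17:80192560-80192914 it was 15.6 in wild-type replicate 2, above the median of 12.4 outside dense chains, but 5.46 and 7.72 in replicates 1 and 3.

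Pairs of neighbouring regions showed the same spread between libraries. Of the 186 neighbouring pairs inside chains, NuMA-depleted replicates 1, 2 and 3 called both regions in 68.8%, 73.7% and 16.7%. Wild-type replicates 1, 2 and 3 did so in 53.8%, 62.9% and 48.4%. The means were 53% ± 31.6 and 55% ± 7.34 (SD, n = 3 each), again a description of presence, with no test. Of the 4525 neighbouring pairs in chains of 2 and 3, both regions were called in 61.6%, 77.7% and 20.6% in the NuMA-depleted and 52.1%, 62.7% and 44.9% in the wild-type libraries, close to the dense chains. Without NuMA-depleted replicate 3 the difference turned from -1.97 to 16.2 percentage points. Complete chains numbered 27, 27 and 2 in the NuMA-depleted and 15, 23 and 13 in the wild-type libraries. In 4 chains every library called at least 4 regions.

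As a share of each list, dense-chain peaks were rare and similar. They made up 0.530%, 0.453% and 0.482% of the peaks of NuMA-depleted replicates 1, 2 and 3 and 0.513%, 0.501% and 0.517% of those of wild-type replicates 1, 2 and 3. The means were 0.489% ± 0.0390 and 0.510% ± 0.00795 (SD, n = 3 each), with no test for the same reason. The wild-type values lay inside the range of the NuMA-depleted ones. The difference of -0.0218 percentage points became 0.00918 with equal numbers of peaks.

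Chains built from each list alone were fewest in the shortest list and most in the longest, but lists of like length also differed. NuMA-depleted replicates 1, 2 and 3 had 43, 63 and 4 such chains of 4 or more peaks, and wild-type replicates 1, 2 and 3 had 31, 56 and 27. They held 0.468%, 0.588% and 0.0780% of the peaks of the NuMA-depleted and 0.372%, 0.607% and 0.354% of those of the wild-type libraries. The means were 0.378% ± 0.267 and 0.444% ± 0.142 (SD, n = 3 each; exact permutation test, two-sided, p = 0.8). Such a test on groups of 3 cannot give less than 0.1. Without NuMA-depleted replicate 3 the difference turned from -0.0663 to 0.0838 percentage points, and without wild-type replicate 2 to 0.0153. With equal numbers of peaks the shares fell to between 0 and 0.0780% and the difference was 0.00153.

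**Figure D5:**
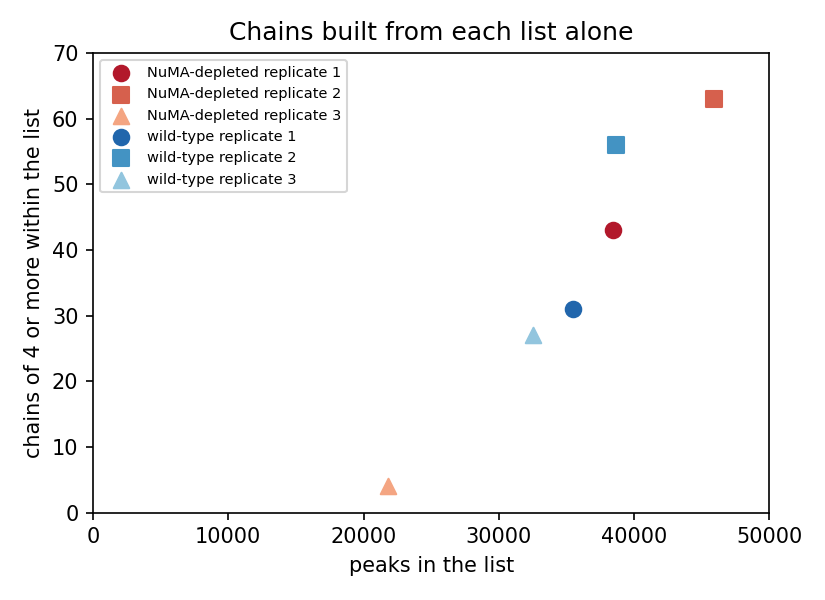
Chains of 4 or more peaks found within each list alone against the number of peaks in that list; each symbol is 1 library. The shortest list, with 21783 peaks, has 4 chains and the longest, with 45892, has 63.

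The group difference in how far dense-chain folds fell short of other folds was smaller than the spread among depleted libraries. The ratio of the median fold inside to that outside dense chains was 0.656, 0.648 and 0.738 in NuMA-depleted replicates 1, 2 and 3 and 0.656, 0.652 and 0.644 in wild-type replicates 1, 2 and 3. The means were 0.680 ± 0.0498 and 0.651 ± 0.00622 (SD, n = 3 each), with p = 0.5 (exact permutation test, two-sided). The difference of 0.0298 was 0.00116 without NuMA-depleted replicate 3 (exact p = 1). After Benjamini-Hochberg adjustment over the 5 group comparisons computed, p was 1 for the own-list chains and for the fold ratio, and in so small a design neither could have passed 0.05.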

How the data were processed

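Peak lists of 6 ATAC-seq libraries were used, 1 per sample, grouped by the genotype label. Trim Galore, Bowtie2 2.4.1, Picard and hg19 are named in the submitters' processing notes, and peak names in the deposited files record a macs2 folder. For the caller's version and settings, read filters, transposase shift and masking of artefacts, the sources used here give nothing. The deposited files give each peak's fold enrichment over local background (a linear ratio), −log10 p-value and −log10 q-value (smallest 2.00), all made by the authors within each library. The deposited score, 10 times the −log10 q as a whole number, was not used. The summit offset served to place summits.

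Merging, chaining and permutation tests were run in Python 3.11.15 with numpy 2.4.6, pandas 2.3.3 and scipy 1.17.1. Pileup and background were recovered by solving the fold, (pileup + 1) / (background + 1), with a Poisson p-value for a whole-number pileup. With a tolerance of 0.01 on −log10 p this held for 99.986% to 99.994% of peaks. Both steps were tested on simulated data. Relative depth is the smallest background divided by the smallest peak width, which assumes that this width is the caller's fragment length. A list percentile is a peak's rank by fold within its own list; where a library had several peaks in a region, the one with the highest q was taken.

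Group differences in presence, neighbouring pairs and list share were planned as tests but are given without p, since presence chose the regions. The regions and measures were chosen with earlier results of these data known. Chains were named by most regions (10), longest span (5 more), full presence and highest weakest −log10 q among group-only regions; others are marked where picked. Gene lists and motif searches planned for hg19 were not run. Correlations between same-numbered libraries of both groups, over kept regions, were -0.00756, 0.0548 and 0.0381. Between differently numbered libraries they ran from -0.0541 to 0.0147, so 0.0548 and 0.0381 were the highest. All were weak, so the numbers were not treated as pairs, and a test with the number as a block is given below.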

Additional observations from a re-analysis of the deposited data

How the results depend on the processing

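Alternatives kept the regions as chosen except where the gap, chain size or number of libraries changed. The ratio of folds kept its sign under all 15 alternatives. These are not independent checks, as the replicate block repeats the main difference by construction. Nearly all of them kept NuMA-depleted replicate 3, and without that library the difference was 0.00116 beside 0.0298 in the main setting. The exact p cannot fall under 0.1 with so few libraries, so staying above that value shows nothing about the groups. The fold ratio reached this limit under 1 alternative, the 10 kb gap. Its mean there was 0.8517 after depletion against 0.8285 for wild type (exact permutation test, two-sided, p = 0.1). For the own-list chains the lowest exact p under any alternative was 0.6. Among peaks with −log10 q of 5 or more, the difference in neighbouring pairs called turned to 0.896 percentage points, and 3 depleted-only regions (1.24%, beside 0.721% of kept regions) were left. With equal numbers of peaks the differences in regions called, list share and own-list chains turned to 0.692, 0.00918 and 0.00153 percentage points, and depleted-only regions numbered 1. A 2 kb gap left 8 regions in 2 chains; the difference in own-list chains was 0.00161 percentage points, that in neighbouring pairs 0, and group-only regions numbered 0 and 0. A 10 kb gap gave 3202 regions, with 27 depleted-only (0.843%) and 34 wild-type-only (1.06%), beside 0.834% and 0.791% of all kept regions. Chains of 6 or more (20 regions in only 3 chains) turned the differences in regions called, list share and neighbouring pairs to 8.33, 0.00517 and 15.7 percentage points. Of these 20 regions, 1 was depleted-only and 0 were wild-type-only, beside 0.834% and 0.791% of all kept regions. Regions in 4 or more libraries formed chains with 64 regions and, by construction, 0 group-only regions in either direction. When a peak had to cover 50% of a region, the same 3 differences turned to 2.35, 0.000419 and 6.63 percentage points.

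Leaving out 1 library at a time, the difference in regions called ranged from -10.2 to 11.6, in neighbouring pairs from -12.3 to 16.2, in own-list chains from -0.171 to 0.0838 and in list share from -0.0427 to -0.00415 percentage points. The difference in the fold ratio ranged from 0.00116 to 0.0461, depleted-only regions from 5 to 18 and wild-type-only regions from 5 to 10. With the replicate number as a block (paired exact test, smallest p 0.25) the differences are the same by construction, -2.63, -0.0218, -0.0663, -1.97 and 0.0298, with p = 0.75 for own-list chains and 1 for the fold ratio. Rebuilding the set without single libraries, from equal numbers of peaks or with gaps of 3 and 7 kb was chosen after seeing the data. Other causes of these changes were not tested. The number of libraries and the unknown read depth limit every comparison, and the recovered relative depth cannot be told apart from the group.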
